A study of Mus musculus with 3 samples.

Results

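Retinoic acid is the active form of vitamin A, and 9 genes that make it, bind it or respond to it as receptors were read out in the early mouse kidney. They are Rdh10, Aldh1a1, Aldh1a2 and Aldh1a3 for synthesis, Crabp1 and Crabp2 for binding in the cytoplasm, and Rara, Rarb and Rarg for the receptors. The genes were chosen by name, through probes whose annotation gives a single gene symbol and that had a value on all 3 arrays. All 9 were measured, out of 14047 genes, by 18 of their 19 probes. Rara and Rarg had 5 such probes each, Rarb had 2, and each of the other members had 1. The remaining probe, a sixth for Rara, lacked a value on array 2.

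Each array set RNA of metanephric mesenchyme, microdissected from CD1 mouse embryos at 10.5 days post coitum (dpc), against RNA of whole metanephroi at 11.5 dpc, from a pool of both sexes. The mesenchyme is the tissue from which the kidney starts, and by the later stage the ureteric bud has grown into it. The RNA was amplified and labelled with amino allyl dyes. Arrays 1 and 2 carried the dyes in the order red/green and array 3 in the order green/red. There was no common reference, so each array holds the whole comparison. Whether the tissue on each array was dissected separately is not given, so p-values measure the spread of these 3 arrays alone, and that spread may be technical. All values are log2 ratios of both channels. Which tissue stands in the numerator is not given, so a positive ratio means more RNA in 1 tissue and a negative ratio more in the other, without saying which. In such bulk RNA, a change in the share of a cell type and a change in RNA per cell cannot be told apart.

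In the pathway, retinol taken up from the blood is oxidised to retinaldehyde, mainly by RDH10 in the embryo, and retinaldehyde is then oxidised to retinoic acid by the ALDH1A enzymes. CRABP proteins carry the product in the cytoplasm, CYP26 enzymes degrade it, and in the nucleus a retinoic acid receptor paired with an RXR binds response elements in the DNA. In the developing kidney the pathway is known for its link to Ret, the receptor that drives branching of the ureteric bud. Retinoic acid receptors are needed for the bud to express it. Aldh1a2 is known as the main source of retinoic acid in trunk mesoderm, and Aldh1a3 is known from the ureteric epithelium.

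The response element is visible in the promoter of a member. RefSeq start sites of the build GRCm38.p6 gave 11 windows of the 250 bases before a start for 6 members. The receptors bind a direct repeat of a 6-base half-site, searched here on both strands in 4 spellings (AGGTCA and also AGTTCA as well as GGGTCA and also GGTTCA), alone and as 2 half-sites with 1, 2 or 5 bases between them. The repeat with 5 bases between half-sites was found in the window of Rarb, at bases -53 to -37 counted from the start. Among 61 windows of the other pathway genes it was found in that of Cyp26a1, which encodes the degrading enzyme, at bases -32 to -16 and on the opposite strand. Of all 32851 windows in the table, 29 held it, which is 0.0883%. The repeats with 1 or 2 bases between were in 0 of the members' windows, against 0.164% and 0.174% of all windows. A single half-site, which overlaps the repeats, was in 4 of the 11 windows and in 38.6% of all. The windows of Rarb and Cyp26a1 are shown with the repeat in capitals, because both are textbook targets of the receptors. The windows of Crabp1 and Aldh1a1 follow because these members had positive ratios on every array; that of Crabp1 has no match. Of the 2 windows of Aldh1a1, the one shown has a half-site on the opposite strand, in capitals, and the other has no match. All are written 5′ to 3′ on the gene's strand.
Rarb, chr14:16575477-16575726, minus strand: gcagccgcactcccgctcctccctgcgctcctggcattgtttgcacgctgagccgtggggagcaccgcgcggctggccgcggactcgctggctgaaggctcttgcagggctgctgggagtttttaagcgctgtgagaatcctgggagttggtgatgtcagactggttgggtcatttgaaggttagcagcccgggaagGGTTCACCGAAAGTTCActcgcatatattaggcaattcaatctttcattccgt
Cyp26a1, chr19:37697558-37697807, plus strand: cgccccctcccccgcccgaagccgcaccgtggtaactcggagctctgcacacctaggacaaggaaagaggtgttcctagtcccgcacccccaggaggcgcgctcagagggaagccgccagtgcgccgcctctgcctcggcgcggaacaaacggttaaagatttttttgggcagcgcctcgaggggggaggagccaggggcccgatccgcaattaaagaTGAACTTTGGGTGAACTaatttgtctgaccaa
Crabp1, chr9:54764498-54764747, plus strand: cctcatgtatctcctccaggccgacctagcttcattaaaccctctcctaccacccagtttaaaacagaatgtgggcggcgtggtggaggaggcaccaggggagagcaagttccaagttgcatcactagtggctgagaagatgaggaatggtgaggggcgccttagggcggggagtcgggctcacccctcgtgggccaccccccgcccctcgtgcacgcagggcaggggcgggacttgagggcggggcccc
Aldh1a1, chr19:20601718-20601967, plus strand: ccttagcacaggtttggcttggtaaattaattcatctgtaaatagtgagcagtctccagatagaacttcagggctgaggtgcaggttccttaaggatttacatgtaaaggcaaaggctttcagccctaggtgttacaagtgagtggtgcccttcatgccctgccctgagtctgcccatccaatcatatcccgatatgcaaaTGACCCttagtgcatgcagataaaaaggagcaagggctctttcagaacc

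Across the members, ratios were small and mostly positive. The mean was above 0 for 6 of the 9 genes, beside 49.8% of all genes, and below 0 for 3, from Crabp1 at 0.78 ± 0.28 (SD, n = 3) to Aldh1a2 at -0.21 ± 0.17. Their median was 0.13, beside -0.00195 over all genes. By limma, 0 of 9 passed an adjusted p of 0.05, and 0 of 14047 genes did (0%), the smallest adjusted p of any gene being 0.149. At an unadjusted p of 0.05, 2 members passed, Rdh10 and Crabp1, both positive, beside 19.6% of all genes and 9.89% on the positive side. That share of the members is close to the background. Both members missed that threshold without array 1, at p of 0.0817 and 0.0833, and with array 3 turned to the opposite sign, at 0.428 and 0.603. Turning array 3 gives mixed signs to any gene with 1 sign on all arrays, so the higher p there follows from the turning. Rdh10 also missed it without array 2, at 0.0680, and Crabp1 without array 3, at 0.0516.

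For 4 members the 3 arrays lay on the same side of 0, beside 45.5% of all genes. Rdh10, Aldh1a1 and Crabp1 were positive throughout, beside 22.9% of all genes, and Aldh1a2 was negative throughout, beside 22.5%. Array 1 had 7 positive members, array 2 had 6 and array 3 had 4. The members' medians were 0.17, 0.37 and -0.08 in the same order. Over all genes 53.0%, 52.7% and 45.5% were positive on these arrays. Without array 3 the members' median was 0.40 and 8 of 9 had the same sign on both arrays left. The part of the dye order in these counts was not tested, since array 3 is the sole array of its dye order.

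**Figure D1:**
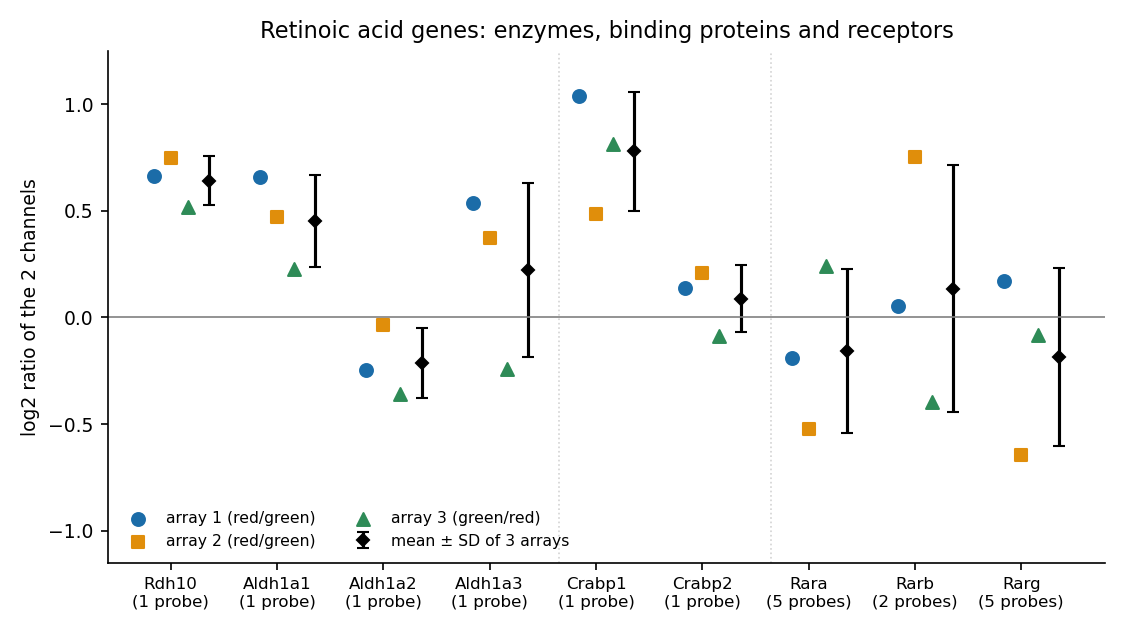
Log2 ratio of the 9 members on each array (coloured symbols) with the mean ± SD of the 3 arrays (black diamonds). Rdh10, Aldh1a1 and Crabp1 lie above 0 on every array and Aldh1a2 below 0 on every array, while the receptors have arrays on both sides.

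Among the synthesis enzymes, Rdh10 had the tightest values as deposited. RDH10 makes retinaldehyde from retinol, the first oxidation step. Its log2 ratios were 0.66 on array 1, 0.75 on array 2 and 0.52 on array 3, with a mean of 0.64 ± 0.12, a 1.56-fold ratio. As deposited, all arrays were positive and lay close together, and 11.3% of genes had a smaller SD. With array 3 turned, that array is negative and the mean is 0.30. By limma the 95% interval ran from 0.24 to 1.04, with an unadjusted p of 0.0116 and an adjusted p of 0.171, which over the alternatives ran from 0.0854 to 0.944.

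Aldh1a1, a retinaldehyde dehydrogenase, had 0.66 on array 1, 0.47 on array 2 and 0.23 on array 3. The array of the other dye order was the lowest, and all were positive. The mean was 0.45 ± 0.22, with a limma interval from -0.00147 to 0.91, an unadjusted p of 0.0505 and an adjusted p of 0.256. Subtracting each array's median moved its unadjusted p to 0.0417 and a dye term moved it to 0.0714. Over 13 alternatives, without robust or unmoderated variances, it ran from 0.0160 to 0.321.

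Aldh1a2, the mesodermal retinaldehyde dehydrogenase, was the member whose arrays were all negative. It had -0.25, -0.03 and -0.36 on arrays 1, 2 and 3, and its mean of -0.21 ± 0.17 had an unadjusted p of 0.229 and an adjusted p of 0.485 by limma. Its 95% interval, from -0.64 to 0.21, holds 0 and rests on the spread of these 3 arrays, which may be technical. With array 3 turned to the opposite sign its mean was 0.03. Aldh1a3, the third of these enzymes, had 0.54, 0.37 and -0.24 on arrays 1, 2 and 3. Its arrays split by dye order, and its mean of 0.22 ± 0.41 had an adjusted p of 0.608 by limma.

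As deposited, the 3 dehydrogenase genes kept their order on each array; turning array 3 reverses the order there. Aldh1a1 lay above Aldh1a2 by 0.91, 0.51 and 0.58 on arrays 1, 2 and 3, a mean difference of 0.67 ± 0.21. It lay above Aldh1a3 by 0.23 ± 0.20, and Aldh1a2 lay below Aldh1a3, at -0.44 ± 0.33. Each of these 3 differences had the same sign on 3 of 3 arrays and an exact two-sided sign-flip p of 0.25. That is the smallest p this test can give with 3 arrays, so it cannot place a difference past 0.05, and adjusted over the 7 pairs compared within families it was 0.438.

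The binding protein genes had unlike values as deposited, and turning array 3 changes the sign of their difference there. CRABP1 and CRABP2 are small cytoplasmic carriers of retinoic acid, of which CRABP2 is known to deliver it to the receptors. Crabp1 had 1.04 on array 1, 0.48 on array 2 and 0.81 on array 3. Every array was positive, and its mean of 0.78 was the highest among the members, a 1.72-fold ratio, larger in size than that of 86.0% of all genes. With array 3 turned it was 0.24, below that of Rarb at 0.40, Aldh1a3 at 0.38, Aldh1a1 at 0.30 and Rdh10 at 0.30. By limma the 95% interval of Crabp1 as deposited ran from 0.28 to 1.28, with an unadjusted p of 0.0128. Its adjusted p was 0.174, which over the alternatives ran from 0.0878 to 0.951.

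Crabp2 stayed near 0, at 0.14, 0.21 and -0.09 on arrays 1, 2 and 3. Its mean was 0.09 ± 0.16, with a limma interval from -0.33 to 0.50 and an adjusted p of 0.771. Crabp1 lay above Crabp2 by 0.90, 0.27 and 0.90 on arrays 1, 2 and 3, a mean of 0.69 ± 0.36, with an exact sign-flip p of 0.25 and 0.438 adjusted over the 7 pairs. Crabp1 is also known from neural crest and neurons, so markers of these cells are given beside it. Of 12 measured markers 1 was positive and 2 were negative at an unadjusted p of 0.05, and the list's median lay between -0.28 and -0.02 over the arrays. The positive one was Dcx, a microtubule protein of young neurons, at 1.40 ± 0.29. The negative ones were Tubb3 at -0.60 ± 0.04 and Isl1 at -0.95 ± 0.43. The part of such cells in the Crabp1 ratio was not tested.

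**Figure D2:**
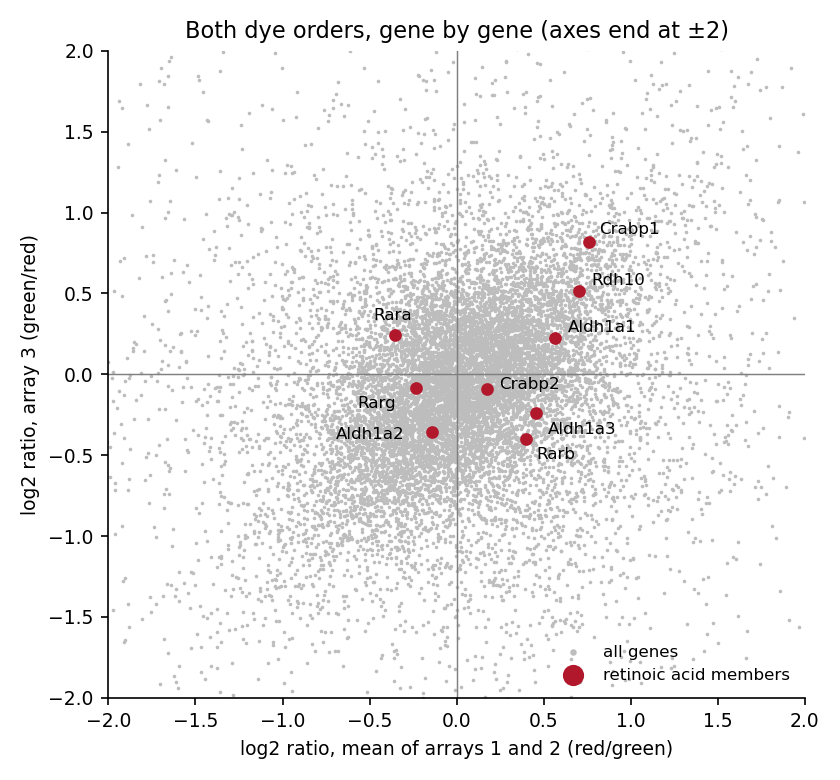
Log2 ratio of each gene on arrays 1 and 2 (horizontal, mean of both) against array 3, which has the opposite dye order (vertical). Grey points are the 14047 genes, of which 703 lie outside the axes, which end at 2 in size. Crabp1, Rdh10 and Aldh1a1 are positive in both dye orders, and Aldh1a3, Rara, Rarb and Crabp2 are on opposite sides.

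The receptor genes had no common sign over the arrays. RARA, RARB and RARG are nuclear receptors that bind retinoic acid directly, and Rarb is itself a known target of the pathway through the repeat shown above. Rarb had 0.05 on array 1, 0.75 on array 2 and -0.40 on array 3, with a mean of 0.13 ± 0.58. Array 2 alone set its side: without it the mean was -0.17. Rara had -0.19, -0.52 and 0.24 on arrays 1, 2 and 3, with a mean of -0.16 ± 0.38. Rarg had 0.17, -0.64 and -0.08, with a mean of -0.18 ± 0.42, and without array 2 its mean was 0.05. By limma the adjusted p was 0.813 for Rarb, 0.708 for Rara and 0.674 for Rarg. The 3 differences between receptor genes had exact sign-flip p from 0.75 to 1 and mixed signs over the arrays.

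These means join probes that disagree. The annotation ties the probes of a receptor to different transcript records of the gene, and their sequences were not used here, so which isoforms each probe reads is not known. For Rara, the 5 probes had means from -0.84 to 0.25, with 2 positive and 3 negative, and 0 of them had the same sign on all arrays. The lowest, CGEN_MOUSE_3007062_1, had -0.50 on array 1, -2.34 on array 2 and 0.33 on array 3. The probe of the gene's RefSeq record, CGEN_MOUSE_3000822_1, had 0.42, 0.10 and -0.31. The sixth Rara probe had -0.87 on array 1 and 0.05 on array 3.

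Rarg had the same pattern, with 4 of its 5 probes between -0.02 and 0.11 in their means and the other at -1.10. That probe, CGEN_MOUSE_3007102_1, had -0.19 on array 1, -2.43 on array 2 and -0.66 on array 3. It and the probe of the RefSeq record, which had 0.01, 0.13 and 0.18, were the members' only receptor probes with the same sign on every array, and they lie on opposite sides. Of all 15340 probes of 1 gene symbol with 3 values, 3.12% lay below -2 on array 2. Without its low probe, a choice made after the values were seen, Rara had a mean of 0.01 ± 0.18 and Rarg of 0.04 ± 0.23. Without array 2 as a whole, the mean of Rara was -0.0449.

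The 2 Rarb probes agreed on arrays 2 and 3 and not on array 1. CGEN_MOUSE_3000826_1 had -0.36, 0.84 and -0.54 on arrays 1, 2 and 3, and CGEN_MOUSE_3000828_1 had 0.47, 0.66 and -0.25. Both are high on array 2 and negative on array 3. At probe level, limma gave no member probe of the 18, and 0 of all 19660 probes (0%), an adjusted p under 0.05. Of the 18, 6 had 1 sign on all arrays, beside 43.7% of all probes. At an unadjusted p of 0.05 the probes of Rdh10 and Crabp1 passed and 0 receptor probes did, beside 17.5% of all probes. Opposite signs among probes were common: 916 genes had several probes, and in 493 of these, 53.8%, the probe means lay on both sides of 0.

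**Figure D3:**
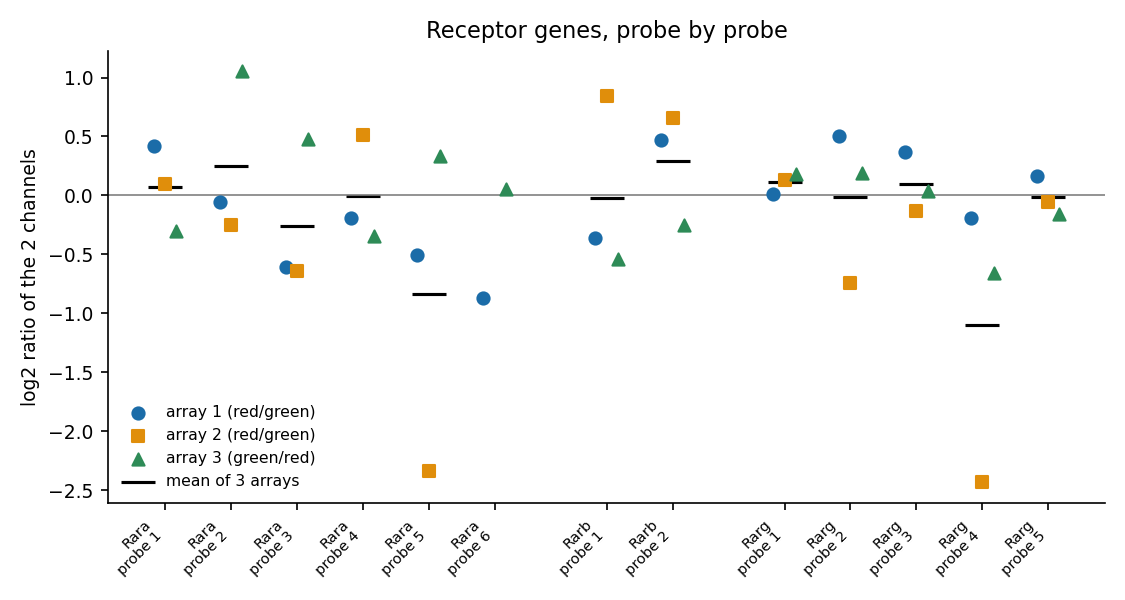
Log2 ratio of each probe of Rara, Rarb and Rarg on each array, with the mean as a black bar; the sixth Rara probe has no value on array 2 and no mean. On array 2, Rara probe 5 and Rarg probe 4 lie at -2.34 and -2.43, apart from the other probes of their genes.

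Genes with ratios most like those of the members were found by Euclidean distance over the 3 arrays. Nearest to Rdh10 were Cxcr5 at a distance of 0.0314, Gstk1 at 0.0332 and Sult6b1 at 0.0470. Nearest to Aldh1a1 were Sla at 0.0370, Zfand4 at 0.0612 and Pgm5 at 0.0613, and nearest to Aldh1a2 were Wdr12 at 0.0310, Rfc4 at 0.0317 and Jmjd6 at 0.0321. Crabp1 had sparser surroundings, with Rpl23 at 0.0976, Gpihbp1 at 0.0989 and Emc2 at 0.112. Within a distance of 0.25 there were 34 genes around Crabp1, 193 around Rdh10, 200 around Aldh1a1 and 470 around Aldh1a2. With 3 arrays many genes share any given pattern.

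Other genes of the pathway were grouped by role. In all 64 genes beside the members had values on every array, of 86 listed, and 15 had an unadjusted p under 0.05, 10 positive and 5 negative, beside 19.6% of all genes. By limma 0 passed an adjusted p of 0.05. Their median was 0.02. Of 15 other enzymes that act on retinol or retinaldehyde, 2 were positive and 1 was negative at that threshold. The retinol dehydrogenase gene Rdh14 had 0.48 ± 0.11 and the alcohol dehydrogenase gene Adh7 had 0.76 ± 0.44, while Adh1, the class I alcohol dehydrogenase, had -0.58 ± 0.05. Adh1 was steady, with -0.62, -0.60 and -0.52 on arrays 1, 2 and 3. Rdh5 had -0.37 ± 0.17. The list's median was 0.03.

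Degradation was read through 1 gene. Cyp26a1, whose promoter repeat is shown above, had 0.06 on array 1, -0.38 on array 2 and -0.23 on array 3. Its mean of -0.19 ± 0.23 had an adjusted p of 0.571 by limma. Its arrays lie on both sides of 0, as those of Rarb do, and only 45.5% of all genes had the same sign on every array. The genes shared a side on arrays 1 and 3, while on array 2 Rarb was positive, at 0.75.

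Of 11 measured genes of retinol uptake, binding and storage, 1 had an unadjusted p under 0.05. This was Rbp4, the carrier of retinol in plasma, with -1.50 on array 1, -0.16 on array 2 and -1.30 on array 3. Its mean was -0.99 ± 0.72, with an unadjusted p of 0.0425 and an adjusted p of 0.240 by limma. Rbp4 is made by liver and yolk sac, and of 9 measured markers of gut, liver and yolk sac 5 were negative and 1 was positive at an unadjusted p of 0.05, with list medians from -1.16 to -0.67 over the arrays. Afp, the fetal plasma protein, had -1.68 ± 0.07. Their part in the Rbp4 ratio was not tested. Rpe65 had 0.38 ± 0.08, Fabp5, which also binds retinoic acid, had 0.28 ± 0.12, and Lrat, which stores retinol as an ester, had 0.29 ± 0.28, or -0.11 with array 3 turned. The list's median was 0.01.

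Among 13 RXR genes and coregulators, Med1, a subunit of the Mediator complex, had an unadjusted p under 0.05, at 0.88 ± 0.44. It had 1.04, 0.38 and 1.21 on arrays 1, 2 and 3. The receptor partner gene Rxrb had -0.35 ± 0.26 and the corepressor gene Hdac3 had -0.31 ± 0.25, both with 3 negative arrays, and with array 3 turned they had 0.04 and 0.05. Sin3a had 0.22 ± 0.27. Rxra, named for its role and after its values were seen, had -0.11, 0.02 and 0.36 on arrays 1, 2 and 3, with a mean of 0.09 ± 0.24. Rxrg, also named after its values were seen, ran from -6.64 on array 1 over -1.11 on array 2 to 4.05 on array 3. Its value on array 1 is a ratio of 0.01, the lowest ratio on arrays 1 and 2 alike, so it may be a floor. The list's median was 0.09.

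Among genes known to respond to retinoic acid, those past the unadjusted threshold lay on both sides. Of 26 measured, 7 were positive and 3 negative at an unadjusted p of 0.05, beside 9.89% and 9.69% of all genes, and 13 had the same sign on every array, beside 45.5%. The other 13 had arrays on both sides of 0, and the median was -0.02. Leaving out array 1 gave 6 genes at that unadjusted threshold, leaving out array 2 gave 6, and turning array 3 gave 1. Turning array 3 gives mixed signs to any gene with 1 sign on all arrays, as these 7 and 3 had. The 7 positive genes included the TALE homeodomain genes Meis1 at 1.00 ± 0.07 and Meis2 at 1.19 ± 0.29, whose products are cofactors of Hox proteins. They also included Hoxd4 at 0.91 ± 0.08 and, named as parts of this count, Hoxa5 at 1.08 ± 0.24, Hoxb3 at 0.54 ± 0.15, Hoxb5 at 0.50 ± 0.11 and the caudal-type gene Cdx2 at 0.52 ± 0.12. Meis1 had 1.05, 1.04 and 0.92 on arrays 1, 2 and 3, and Hoxd4 had 0.89, 0.85 and 1.00. Adjusted p by limma was 0.149 for Meis1, 0.157 for Meis2 and 0.153 for Hoxd4. These genes kept a positive mean under all alternatives run.

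The 3 negative genes were Rai1 at -1.03 ± 0.18, Isl1, a LIM homeodomain factor, at -0.95 ± 0.43, and Ret at -0.43 ± 0.11. Rai1, a chromatin regulator named for its induction by retinoic acid, had -0.90, -0.95 and -1.23 on arrays 1, 2 and 3. Ret had -0.46, -0.52 and -0.30, so that each array was negative, with an unadjusted p of 0.0403 and an adjusted p of 0.234 by limma. Ret, Isl1, Cdx2 and Tbx5 also stand in the marker lists of ureteric bud, neurons, gut and limb bud.

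**Figure D4:**
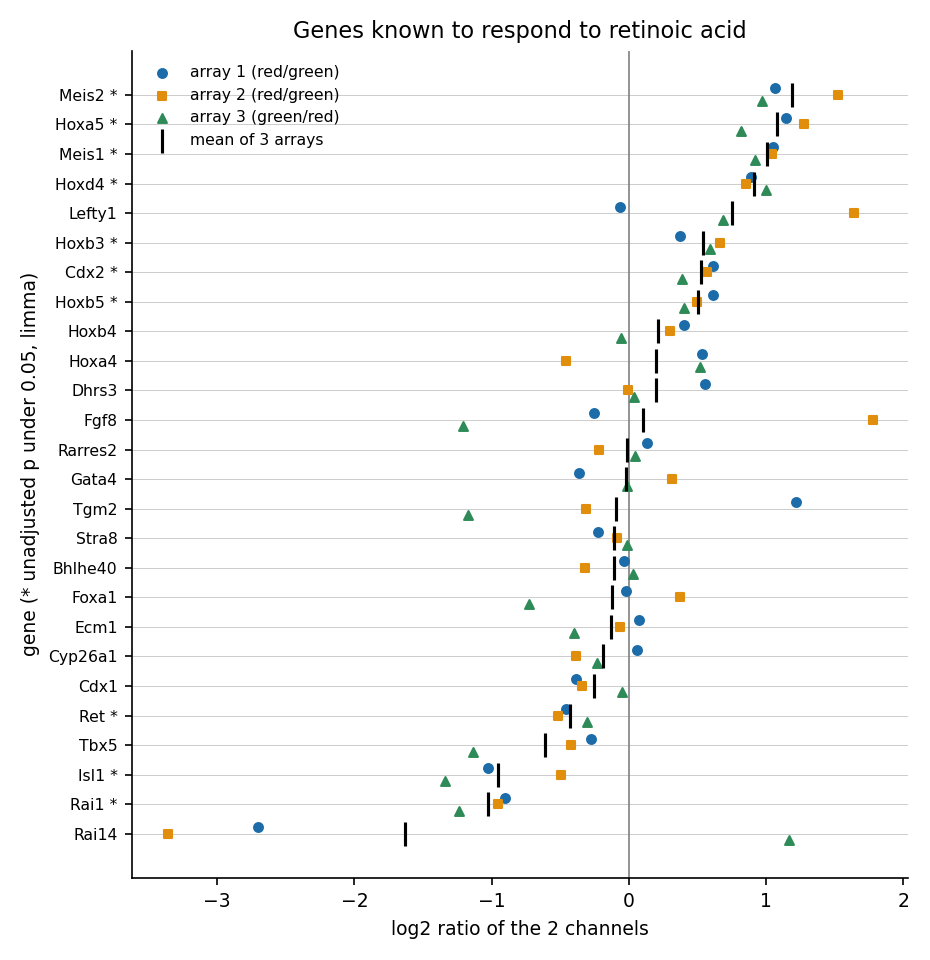
Log2 ratio on each array (coloured symbols) and mean (black bar) of 26 genes known to respond to retinoic acid, in order of the mean. Stars mark an unadjusted p under 0.05. Meis2, Hoxa5, Meis1 and Hoxd4 have 3 arrays close together on the positive side, and Rai1 and Ret on the negative side.

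Markers of the cells that could carry these genes were read on the same scale. At an unadjusted p of 0.05, 9.89% of all genes were positive and 9.69% negative, which is the background for the counts of every list. Of 15 renal stroma genes 5 were positive and 0 negative at that threshold, with list medians from 0.01 to 0.45 over the arrays, and Foxd1, the stromal transcription factor, had 1.56 ± 0.17. Of 12 genes of the nephron progenitor mesenchyme 3 were positive and 0 negative, with medians from 0.10 to 0.27, and Crym had 1.91 ± 0.10. Of 13 ureteric bud genes 2 were positive and 3 negative, with medians from 0.03 to 0.19, and Calb1, a calcium binding protein, had 1.16 ± 0.10. Of 8 genes of mesothelium and coelomic epithelium 0 were positive and 1 was negative, the keratin gene Krt7 at -0.52 ± 0.10, with medians from -0.34 to 0.25. The defining genes of kidney mesenchyme and ureteric bud thus had ratios on all arrays, although ratios do not give their levels.

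Markers of limb bud, of somite and muscle, and of endothelium leaned to the negative side, and those of blood did not. Of 10 limb bud genes 6 were negative and 0 positive at that threshold, with medians from -0.83 to -0.68, and Pitx1 had -1.95 ± 0.35. Of 12 somite and muscle genes 5 were negative and 1 was positive, with medians from -0.87 to -0.39, and Acta1 had -4.96 ± 0.92. Of 11 endothelial genes 5 were negative and 0 positive, with medians from -0.53 to -0.39, and Cldn5 had -1.12 ± 0.31. Of 9 blood genes 1 was negative and 2 were positive, with medians from -0.23 to 0.18. By their means 5 were positive and 4 negative. Klf1, the negative gene at that threshold, had -1.10 ± 0.14, while Lyz2 had a mean of 0.81 and Tyrobp of 0.70. By their means, 6 of 15 stroma genes and 5 of 12 progenitor genes were negative, so these lists lie on both sides. The part of tissue makeup in these ratios was not tested.

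**Figure D5:**
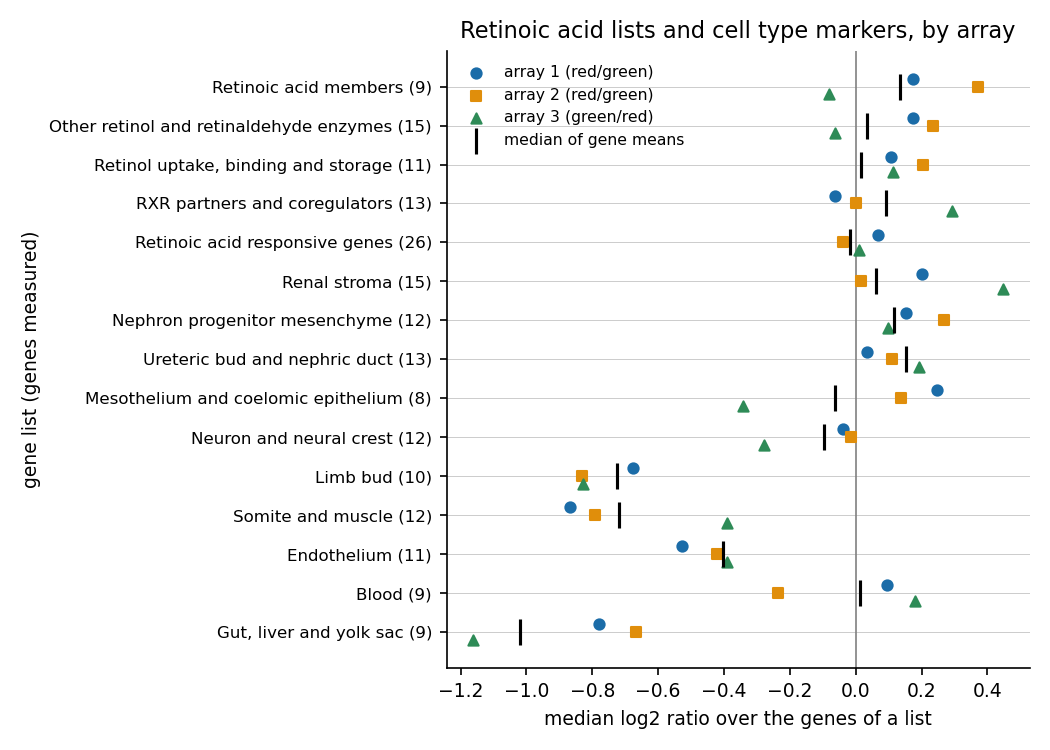
Median log2 ratio over the genes of each list on each array (coloured symbols) and median of the gene means (black bar), with the number of genes measured in brackets. The 9 members run from -0.08 on array 3 to 0.37 on array 2. Limb bud, somite and muscle, endothelium, and gut, liver and yolk sac lie below 0 on every array. Neuron and neural crest does so too, though close to 0 on arrays 1 and 2.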

How the data were processed

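Spots were quantified by the authors in Imagene 5.5, per the labels. Normalization in R, also per the labels, used print-tip lowess, each point fitted over 20% of the data, then a step between arrays. Per the same labels, control channel readings below 10 were raised to 10. What was deposited is the log2 ratio per spot, with no numerator named. The ratios were used as deposited: array 3 correlated above 0 with arrays 1 and 2 over 19660 probes (Pearson r 0.0517 and 0.0148, Spearman rho 0.211 and 0.171). Its orientation is not given, so its opposite sign is an alternative, under which these correlations would be below 0. As deposited, median ratios of the limb bud, muscle, endothelial, gut and neuron marker lists were below 0 on every array, array 3 included. Those of some other lists, the members among them, changed side on array 3. Turning array 3 lowered the count of genes at an unadjusted p of 0.05 by limma from 2750 to 779. Intensities were not analysed here. Precision is limited by having 3 arrays.

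Of 22702 rows, 21912 were gene probes, 16656 with 1 gene symbol in the platform annotation, 137 with several and 5119 with none. Symbols matched through Entrez identifiers for 15970 probes, and 0 changed. Probes of 1 symbol with 3 values were averaged per array. A two-sided test of the mean against 0 used limma 3.58.1 (lmFit, eBayes; R 4.3.3), and p-values were adjusted by Benjamini-Hochberg over all genes or probes. Values after ± are SDs over the arrays. The fit was tested on simulated data. Promoter windows are from RefSeq, GRCm38.p6, and 46 of the 64 other pathway genes had one. Figures were drawn with Matplotlib 3.10.9.

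The members, 5 pathway lists and 10 marker lists were chosen with earlier results of these data known. Named are all members, up to 4 genes of each pathway list and 1 of each marker list by smallest unadjusted p, and the 3 nearest genes of each member with 1 sign on all arrays; others are parts of a count. Alternatives were centring, scaling, array 3 turned, a dye term, values on 2 arrays, other ways to join probes, limits on extreme values, robust or unmoderated variances, array weights and each array left out. Ranges of a member's mean or p over the alternatives come from 13 of them, without robust or unmoderated variances.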

Additional observations from a re-analysis of the deposited data

How the results depend on the processing

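Each array holds both tissues, so its log2 ratio is a paired difference and the tests above were paired by array. The arrays form a single group, and no further pairing is given. Of 117 member means over the alternatives, 111 stayed on the same side of 0. The other 6 were Aldh1a2 at 0.0256 with array 3 turned, Rara at 0.0705 with the probe of smallest SD, Rarb at -0.17 without array 2, and Rarg at 0.0254 with the median of its probes, 0.11 with the probe of smallest SD and 0.0451 without array 2, with a range over left-out arrays from -0.364 to 0.0451. Causes were not tested. The count at an adjusted p of 0.05 was 0 genes and 0 probes by limma throughout, which says nothing of stability. With array 3 turned, the counts at an unadjusted p of 0.05 were 779 genes of all against 2750, 0 members against 2 and 1 responsive gene against 10. Genes with 1 sign on all arrays as deposited have mixed signs once array 3 is turned, so their higher p follows from the turning. With an array left out they ran from 1144 to 2941 genes, from 0 to 2 members and from 6 to 9 responsive genes. Fewer arrays enter those tests. With an array left out, the members' median ran from 0.0451 to 0.401 and 4 to 8 members had the same sign on the arrays left. Averaging all probes with any value, and both counts of members and responsive genes at an unadjusted p, were chosen after seeing the data.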
